A study of Mus musculus with 8 samples.

Results

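Purified mesenchymal stem cells of adult mouse bone marrow (MSC) and cultured skin fibroblasts of mouse embryos (MEF) were compared across all genes, as 2 of the 8 microarrays of a study of fetal and adult liver mesenchyme. The members were chosen by their labels, 1 array for each cell type, with earlier results of these data known. Every difference below is the level on the MSC array minus the level on the MEF array. The other 6 arrays held p75NTR-bearing liver cells of mice at E11.5 and E13.5, at E14.5 and at E17.5, and of newborns (P1), and adult hepatic stellate cells sorted by vitamin A (adult HSC). They serve here only to show on which side of a difference the remaining cells lie. The labels give no allele, strain, treatment or passage for the MSC or the MEF, do not say by which surface markers the MSC were purified or whether they were cultured, and give no age beyond adult for the former and embryonic for the latter. The sources used here do not say whether animals were pooled. With 1 array a side the spread between cultures or animals is unknown, so no p-value is given, and a difference describes these 2 arrays.

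Mesenchymal stem cells of bone marrow, also called stromal cells, are a rare population that can form bone, cartilage and fat in culture and that in the marrow supplies blood stem cells with factors such as CXCL12 and KIT ligand. In the mouse they are commonly recognised by the surface proteins SCA-1 (the product of Ly6a), PDGFRA, the leptin receptor and VCAM1, together with the lack of the leukocyte protein CD45 (Ptprc). Embryonic fibroblasts are a mixed population grown out of embryonic tissue, which lays down collagen-rich matrix and divides well in early passages. Long culture of mouse fibroblasts and marrow stroma is known to raise the products of the Cdkn2a locus, which halt the cell cycle through the retinoblastoma protein and p53.

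The measured quantity was the fluorescence of each array spot, expressed as a level: the log2 signal relative to the 75th percentile of the array. In what follows the level on the MSC array stands first and that on the MEF array second. On the MSC array 61.9% and on the MEF array 64.4% of 43020 spots were well above background, and the 75th percentiles of the signal were 414 and 413, with 0 saturated spots on both. Among probes printed 10 times on an array, the median SD of the log2 signal was 0.06 on the MSC array and 0.07 on the MEF array, and the 90th percentile of the SD was 0.17 and 0.19. This error covers the spots of 1 hybridisation only. Both arrays lay on the same slide. Genes were compared where the probe was well above background on the brighter array, which left 15176 of 20144 named genes, 12848 above background on both arrays, with the remainder above it on 1 array only. Where the dimmer side was not well above background the fold is given as a bound, "at least". Such a bound holds for the signals as processed here and is no minimum under other background corrections.

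By the 4-fold threshold the MSC array differed from the MEF array mostly through genes that were lower on it. At least 4-fold apart were 2876 of the 15176 compared genes (18.95%), 485 of them higher (3.196%) and 2391 lower (15.76%) on the MSC array. On 1621 of these the dimmer side was not well above background. The median difference over all compared genes was 0.05, and it became 0.67 when each array was scaled to its median instead. Under that scaling 1168 genes were at least 4-fold higher and 1958 lower, so 37.4% of the calls were higher in place of 16.9%. Median scaling raises every difference by the same amount, so the medians of the gene lists below shift with that of all genes. The shares of all genes at least 2-fold apart under it were not computed. Background correction by the normexp model with an offset of 50, which pulls dim levels together, left 115 higher and 725 lower genes. Several probes well above background on at least 1 of the 2 arrays were present for 530 called genes. Their lowest and highest probe differences had unlike signs in 39, and in 382 both were at least 4-fold, in either direction. By the share of genes at least 4-fold apart, the MEF array was the nearest of the other 7 to the MSC array. It was followed by E11.5, on the other slide, at 21.8%, and adult HSC, on the same slide, was the farthest at 29.6%. The MEF array lay nearer to each of the 5 p75NTR-positive liver arrays, at no more than 16.2%, than to the MSC array.

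**Figure D1:**
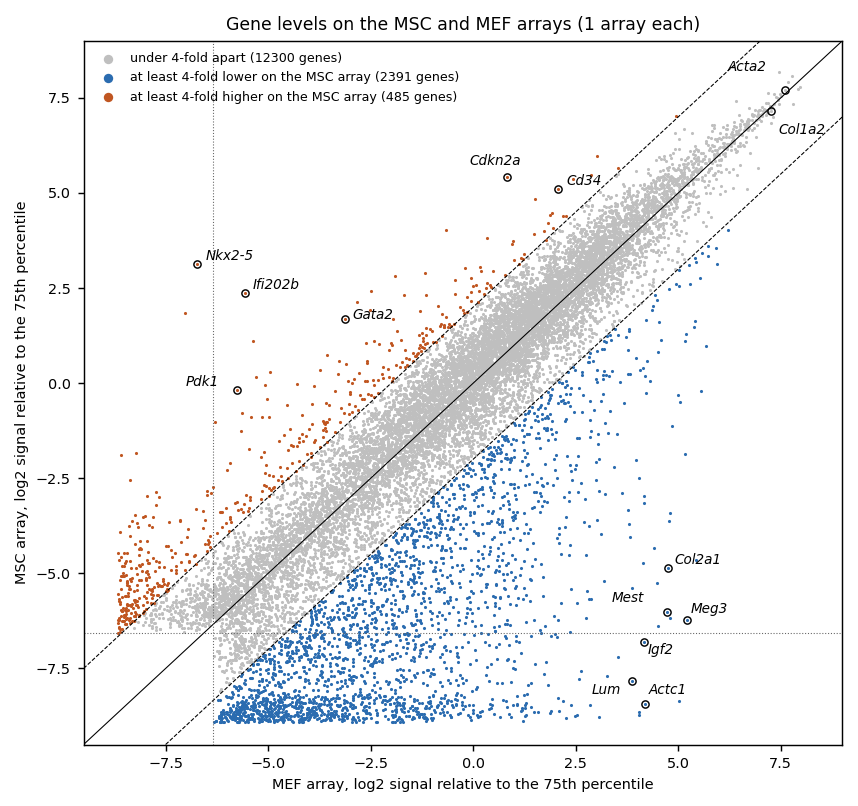
Level of each of the 15176 compared genes on the MEF array (x axis) and the MSC array (y axis), both as log2 signal relative to the 75th percentile; the solid line marks equal levels, the dashed lines a 4-fold difference and the dotted lines the lowest level counted as well above background on each array. The 2391 lower genes spread to the floor of the MSC array (Lum, Actc1, Igf2), while Acta2 and Col1a2 lie on the diagonal at high levels.

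The label of the MSC was checked first against surface proteins of marrow stroma. All but Bst1 of 20 stromal surface markers were well above background on the MSC array, yet 13 were at least 2-fold lower there and 1 was higher (all genes compared: 38.44% apart by at least 2-fold, that is 23.97% lower and 14.47% higher by 2-fold), and the median difference was -1.80. Ly6a, SCA-1, had levels of 1.74 against 3.18. The receptor gene Pdgfra stood at 0.03 against 2.08, Vcam1, which binds integrins of blood cells, at 1.12 against 3.35, and Lepr, the leptin receptor, at -0.85 against -0.31. None of these 4 was higher on the MSC than on the MEF array. Thy1, a surface glycoprotein of fibroblasts, reached 1.64 against 5.40, Alcam -5.36 against 0.31, and Anpep, an aminopeptidase, -5.41 against 2.39. Ngfr, which encodes p75NTR, was 137-fold lower on the MSC array, at -5.73 against 1.37, and ranged from 3.24 to 6.42 on the liver-derived arrays. The member that was higher was Cd34, a sialomucin of progenitor and endothelial cells, at 5.10 against 2.08. Cd9, Itgb1 and Mcam differed by at most 0.21 on the log2 scale.

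The genes that marrow stroma uses to keep blood cells did not set the MSC array above the MEF array as a group. Of 23 listed niche factors 19 were compared, with 2 at least 2-fold higher, 11 lower and a median of -1.11. Cxcl12, the chemokine that retains blood stem cells, stood at 4.59 against 4.14, below all 6 liver-derived arrays (5.59 to 7.71). Il11, a cytokine of the interleukin 6 family, was higher at -0.41 against -2.65. The osteoprotegerin gene Tnfrsf11b, which encodes a decoy receptor that restrains osteoclasts, was at least 66.3-fold lower (MEF -0.53). Lower too were Ptn, a heparin-binding growth factor, at 0.96 against 5.67, Angpt1 at -4.05 against -1.12, Igf1 at -0.92 against 1.75 and the Notch ligand Jag1 at -1.48 against 0.77. The transcription factor Ebf3 and the osteoclast factor Tnfsf11 differed by 0.14 and -0.14.

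The 3 lineages that MSC can form were unevenly represented. Over all compared genes 14.47% were at least 2-fold higher and 23.97% lower, and their median becomes 0.67 under median scaling. Among osteoblast genes 4 of 19 compared were higher and 8 lower, with a median of -0.02 that turns to 0.60 under median scaling (7 higher and 7 lower). Ank, a pyrophosphate transporter of bone, was higher at 1.52 against -0.72, whereas the osteoblast regulator Sp7 was at least 2.83-fold lower (MEF -5.08), Dlx5 was at least 10.3-fold lower (MEF -3.21), and the parathyroid hormone receptor Pth1r was 360.3-fold lower at -5.68 against 2.81. Among adipocyte genes 3 of 20 were higher and 7 lower, with a median of -0.24 that turns to 0.37 under median scaling (8 higher and 4 lower). The 3 higher were Pparg, the master regulator of fat cell formation, at 0.65 against -0.92, the lipase Pnpla2 at 1.28 against -0.21 and the triglyceride synthase Dgat2 at 1.24 against -0.01. The lower ones included the fatty acid transporter Cd36, which was at least 131-fold lower (MEF 0.52), the apolipoprotein Apoe at -2.21 against 3.43 and Zfp423, a preadipocyte factor, at -5.46 against -0.90. Of 18 compared chondrocyte genes 15 were lower and none was at least 2-fold higher, with a median of -3.19 (-1.29 with normexp). Col2a1, the main collagen of cartilage, was 785-fold lower at -4.86 against 4.76. Col9a1 was at least 38.6-fold lower (MEF -1.31), and the joint-forming ligand Gdf5 was at least 46-fold lower (MEF -1.06). The summed signal of the chondrocyte list, in units of the 75th percentile, was 0.781 on the MSC array, 34.5 on the MEF array and 0.511 to 13.8 on the liver-derived arrays. In material that holds many cells, fewer cells of a type and less RNA per cell cannot be told apart, and this holds for every list below.

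**Figure D2:**
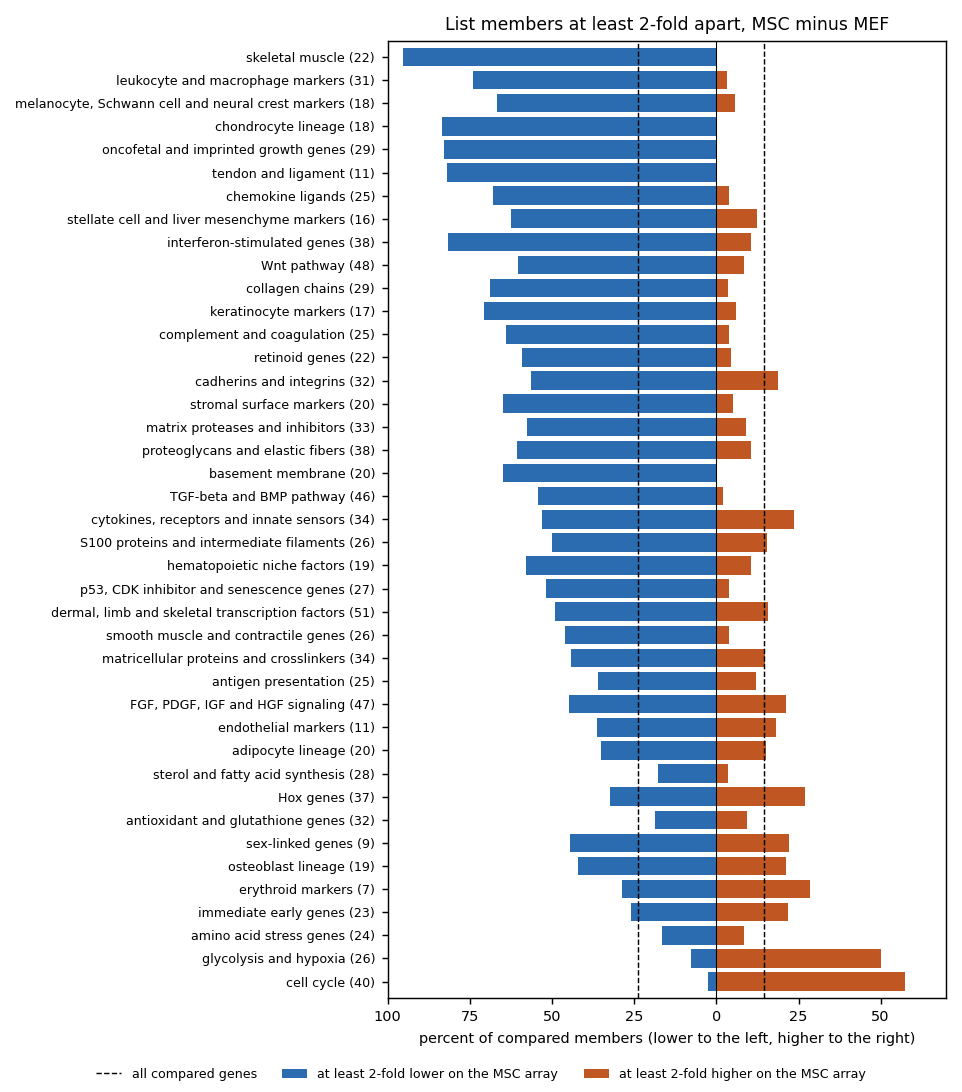
Percent of the compared members of each of the 41 gene lists that were at least 2-fold lower (bars to the left) or higher (bars to the right) on the MSC array, with the number compared in brackets and lists ordered by their median difference; the dashed lines mark the shares over all compared genes, 23.97% lower and 14.47% higher. Skeletal muscle lies at the lower end with 21 of 22, and cell cycle at the upper end with 23 of 40.

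The genes most raised on the MSC array relative to the MEF array came from several families. Ifi202b, an interferon-inducible DNA-binding protein, was 246-fold higher at 2.37 against -5.57 and not well above background on any liver-derived array. Nkx2-5, the homeobox factor known for its role in heart and spleen formation, was at least 708-fold higher (MSC 3.13), and its level on the liver-derived arrays ran from -7.05 to 0.04. Gata2, a zinc finger factor of blood progenitors and stroma, was 28.3-fold higher at 1.69 against -3.13. Gata4, which the liver-derived arrays hold at 2.73 to 3.93, was at least 11.3-fold higher (MSC -2.84). The homeobox genes Hmx2 and Dlx1 were at least 21.8-fold and 11.1-fold higher.

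Other leading genes encode surface and secreted proteins. Itga3, a laminin-binding integrin subunit, stood at 2.42 against -2.50, Msln, the mesothelial surface protein mesothelin, at 2.83 against -1.90, and Ccbe1, which promotes the processing of the lymphatic growth factor VEGFC, at 2.14 against -2.84. Serpinb2, a plasminogen activator inhibitor, had levels of -0.89 against -5.43, and Ankrd1, an ankyrin repeat protein responsive to mechanical load, 4.04 against -0.66. Prl2c5 and Prl3d2, prolactin family hormones known from the placenta, were at least 289-fold and 38.3-fold higher, and neither was well above background on the MEF array or on any liver-derived array. The membrane protein gene Tmem171 was 89.1-fold higher at 1.11 against -5.37. Of the 20 leading genes above background on both arrays, Sfi1 and Immp1l rest on 1 of their 2 probes: the other probe gave differences of -0.41 and 0.43.

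Cdkn2a stood apart from the rest of its list. This locus encodes the cell cycle inhibitors p16INK4a and p19ARF, and its level was 5.43 against 0.82, 24.4-fold higher on the MSC array, while the highest of the liver-derived arrays was at -3.17. Of 27 genes of p53 signalling, CDK inhibition and senescence it was the only one at least 2-fold higher by 75th percentile scaling (3 under median scaling), 14 were lower, and the median was -1.02. Several of the lower ones are known targets of p53. Cdkn1a, which encodes p21, was 18.3-fold lower at -0.53 against 3.67. Trp53inp1 stood at -4.81 against 1.43, Perp at -3.04 against 1.04, Ccng1 at 0.34 against 3.03, the death receptor Fas at -2.26 against 0.21, and Eda2r was at least 7.12-fold lower (MEF -3.75). On the liver-derived arrays Trp53inp1 ranged from -0.97 to 1.47 and Ccng1 from -0.53 to 0.31, so the MSC array lay below all 6 for the former and just above the highest for the latter. Cdkn1c, an imprinted CDK inhibitor, was 62-fold lower at -1.12 against 4.84. The p53 gene itself, Trp53, which is not on the list and was looked up after its targets had been seen, stood at -2.44 against -0.72, below the liver-derived range of -1.58 to -0.78. Aen, Trp73 and Glb1, members of the same list, differed by at most 0.10.

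Genes of DNA replication and mitosis were higher on the MSC array. All 42 listed genes had a probe and 40 were compared, each well above background on both arrays; 23 were at least 2-fold higher, 1 was lower, and the median was 1.13 (from 0.92 to 1.74 over the 4 other scalings tried). The largest differences were those of the kinase Ttk at -2.45 against -4.69, the helicase subunits Mcm5 at 4.81 against 2.83 and Mcm2 at 3.08 against 1.22, the licensing factor Cdt1 at 4.69 against 2.74 and the transcription factor Foxm1 at 2.48 against 0.54. Only Ttk was at least 4-fold apart, so the shift was broad and modest. Cdc20, Ccnb1 and Mcm6 differed least, by 0.52, 0.56 and 0.58. Ccnd2, a cyclin of the G1 phase, was the lower one at 2.66 against 4.38. The MSC array lay above the highest liver-derived array for Mcm5 (4.11), Foxm1 (0.62) and Mki67 (at 4.85 against 3.69, liver-derived maximum 4.64).

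Glycolytic and hypoxia-responsive genes formed the other list with a median near 1. All 26 were above background on both arrays, with 13 at least 2-fold higher, 2 lower and a median of 0.93 (0.77 to 1.54 over the other scalings). Such genes are known targets of the transcription factor HIF1, which binds the core letters ACGTG. Pdk1, the kinase that shuts pyruvate out of the mitochondria, was 47.9-fold higher at -0.18 against -5.76, Ankrd37 stood at 0.53 against -2.58, and Bnip3, which drives the removal of mitochondria, at 5.36 against 2.43. The glycolytic enzymes Pfkl and Pgk1 had levels of 3.66 against 0.94 and 7.02 against 4.93, and the lactate exporter Slc16a3 4.08 against 1.95. The 2 lower ones were Adm, which encodes the vasodilator adrenomedullin, 20.9-fold lower at -2.86 against 1.53, and the carbonic anhydrase Car9 at -4.67 against -3.23. Ldha and Gapdh differed by 0.07 and 0.11, while other probes of these genes gave differences up to 2.03 and 1.48. The promoters of Ankrd37 and Bnip3 are shown as examples of the motif beside genes among those with the largest differences in the list. They span 250 bases before to 50 after the start site in RefSeq on GRCm38.p6, at chr8:45999801-46000100 and chr7:138909457-138909756 (both on the minus strand, printed 5' to 3' along the gene), with ACGTG and its reverse complement CACGT in capitals (in Bnip3 the matches on both strands overlap).
Ankrd37: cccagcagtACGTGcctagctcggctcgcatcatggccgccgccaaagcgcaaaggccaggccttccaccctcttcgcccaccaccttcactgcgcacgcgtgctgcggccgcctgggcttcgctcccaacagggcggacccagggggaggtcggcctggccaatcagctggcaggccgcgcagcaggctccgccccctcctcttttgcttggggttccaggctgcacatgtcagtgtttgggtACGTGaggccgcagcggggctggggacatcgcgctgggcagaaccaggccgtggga
Bnip3: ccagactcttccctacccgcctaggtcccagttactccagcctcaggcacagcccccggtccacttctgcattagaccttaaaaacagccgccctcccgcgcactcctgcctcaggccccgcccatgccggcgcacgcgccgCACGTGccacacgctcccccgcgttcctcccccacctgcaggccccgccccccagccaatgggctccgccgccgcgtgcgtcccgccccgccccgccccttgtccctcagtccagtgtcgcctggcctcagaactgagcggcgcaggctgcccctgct
Searched on both strands, ACGTG occurred in 17 of the 25 list members with a promoter in the table (68.0%) and in 27.3% of the promoters of 12050 compared genes. The 17 members that hold it had a median difference of 0.80 and the others 0.99, and outside the list the 3272 genes with the motif had a median of 0.10 against 0.03 for genes without it. Members with and without these letters in this window were therefore both higher on the MSC array.

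Of 47 compared genes of FGF, PDGF, IGF and HGF signalling and related factors 10 were higher and 21 lower, with a median of -0.56 that turns to 0.05 under median scaling (13 higher and 18 lower). The median of all compared genes under that scaling was 0.67. Bdnf, brain-derived neurotrophic factor, had levels of 1.89 against -1.30, the EGF receptor ligands Ereg 0.58 against -2.60 and Hbegf 2.95 against 0.20, the HGF receptor Met -1.18 against -3.61 and Vegfa 2.70 against 0.93. The growth factor Igf2 was at least 1701-fold lower (MEF 4.15). Its binding protein Igfbp5 was at least 1588-fold lower (MEF 4.05), Igfbp3 was at least 174-fold lower (MEF 0.87), and Igfbp2 was 336-fold lower at -5.21 against 3.18. Spry1, a feedback inhibitor of receptor kinases, was at least 278-fold lower (MEF 1.64). Pdgfa, Fgf2, Fgf7 and Hgf differed by 0.02, 0.01, -0.05 and -0.15. Bdnf, Ereg, Hbegf, Met and Vegfa were named after their values were seen.

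Imprinted and oncofetal growth genes were among those lowest on the MSC array. These genes are typically active in the embryo, many from only 1 parental copy, and are turned down after birth. Of 29 compared, 24 were at least 2-fold lower and none was higher (2 under median scaling), with a median of -3.06 (-2.14 with normexp). Meg3, a maternally expressed long noncoding RNA, was 2764-fold lower at -6.23 against 5.20, the lowest difference among genes above background on both arrays, and its 3 probes gave differences from -11.43 to -7.83. Mest was 1701-fold lower, at 4.73 on the MEF array, and Peg3 stood at -5.78 against 2.53. Zim1 was at least 57.9-fold lower (MEF -0.73). On the adult HSC array, the other adult cells of the series, Meg3 had a level of -1.94, Mest 1.51 and Igf2 -4.56, so it lay between the MSC array and the embryonic arrays for Meg3 and Mest. Dlk1, another imprinted gene, was lower but bright on both arrays, at 5.65 against 6.93. Gnas, Lin28a and Peg10 differed by -0.04, 0.50 and -0.50, although another probe of Gnas gave -4.08.

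The matrix programme of the MEF array was only partly present on the MSC array. Fibrillar collagen type I was nearly equal: Col1a1 stood at 4.31 against 4.31 and Col1a2 at 7.16 against 7.25. Even so 20 of 29 compared collagen chains were at least 2-fold lower, 1 was higher, and the median was -2.25 (-1.15 with normexp). Col3a1, the type III chain, was at 3.33 against 5.71, and Col5a3 at -1.60 against 3.04. Col26a1 and Col8a2 were at least 235-fold and 274-fold lower. Among proteoglycans and elastic fiber genes 23 of 38 were lower and 4 higher, with a median of -1.60. The small leucine-rich proteoglycan Lum, lumican, was at least 1405-fold lower (MEF 3.88), although all 6 liver-derived arrays held it at 4.57 to 6.47. Of the genes of elastic fibers, named here for the size of their difference, Mfap4 was 1999-fold lower at -6.16 against 4.80, Fbn2 613-fold at -5.39 against 3.87, Mfap2 297-fold at -3.41 against 4.80 and Eln, elastin itself, 158-fold at -5.60 against 1.70. Bgn, Sdc2 and Ltbp4 differed by at most 0.10.

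Basement membrane genes, proteases and matricellular proteins showed the same split. Of 20 basement membrane genes 13 were lower and none higher, with Lama1 at -6.44 against -1.20 and Nid2 at -1.46 against 2.01, while Hspg2 and Lamb2 differed by -0.09 and -0.03. Of 33 proteases and inhibitors 19 were lower and 3 higher. Mmp2, a gelatinase, was at least 799.7-fold lower (MEF 3.06), whereas the liver-derived arrays ran from 2.74 to 4.85; Ctsk, cathepsin K, stood at -3.98 against 3.10 and the inhibitor Timp2 at 6.48 against 6.65. Of 34 matricellular and crosslinking genes 15 were lower and 5 higher. Postn, periostin, had levels of -2.92 against 3.22 and Tgfbi -2.97 against 4.16, but Fn1, fibronectin, was nearly equal at 6.15 against 6.18. Lrrc17 and Lrrc15, leucine-rich repeat proteins, were at least 3076-fold and 924-fold lower. The medians of these 3 lists in the order given were -1.44, -1.70 and -0.77. For Col14a1 and Fndc1 no bound is given, since another probe of each gene was above background on the MSC array.

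Contractile genes divided into an equal and a lower set. Acta2, smooth muscle actin and a marker of myofibroblasts, was high and nearly equal at 7.71 against 7.60, above the liver-derived maximum of 6.81. Tpm4 and Flna also differed by at most 0.21. Of the 26 genes in that list 12 were lower and 1 higher, with a median of -0.86. The lower ones included genes known from mature smooth muscle and pericytes: Myh11 was at least 18-fold lower (MEF -2.41), Rgs5 was at least 21.6-fold lower (MEF -2.15), Abcc9 was at least 32.2-fold lower (MEF -1.57), and Mylk stood at -5.18 against 0.76. Skeletal muscle genes were on the MEF side almost without exception, 21 of 22 compared being lower on the MSC array. Their median was -6.60 (-5.50 with levels below background at their bound, -2.61 with normexp). Actc1, the alpha-cardiac actin of fetal muscle, was at least 1738-fold lower (MEF 4.18); the myosin light chain Myl1 was at least 693-fold lower (MEF 2.86); the myogenic regulator Myog was at least 107-fold lower (MEF 0.16). The MEF array held 21 of the 25 listed muscle genes above background and the MSC array 9, with summed signals of 76.6 and 3.46 (liver-derived arrays 5.77 to 24.4). The part of muscle cells in the MEF preparation in these differences was not tested. Of 11 compared tendon and ligament genes 9 were lower and none was higher (median -2.99, with normexp -1.63). The tendon membrane protein Tnmd was at least 254-fold lower (MEF 1.41), while the tendon regulator Scx differed by 0.21.

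Leukocyte genes were likewise lower on the MSC array. Of 37 listed markers 31 were compared. On the MSC array 23 were at least 2-fold lower, 1 was higher, and the median was -4.80 (with normexp 17, 1 and -1.67). The MEF array held 30 and the MSC array 14 of them above background, with summed signals of 50.4 and 6.91 (liver-derived arrays 4.66 to 20.4). On the MEF side these were macrophage genes: Trem2, a lipid receptor of macrophages, was at least 589-fold lower (MEF 2.62), Tyrobp was at least 433-fold lower (MEF 2.18), the complement subunit gene C1qa was at least 285-fold lower (MEF 1.57), and the protease gene Ctss was at least 409.7-fold lower (MEF 2.10). Csf1r, the receptor for macrophage colony-stimulating factor, stood at -0.28 against 3.16. Ptprc, CD45, was dim on both arrays at -6.29 against -4.40, with no liver-derived array above background. Of the markers of bone marrow granulocytes, Camp, Prtn3 and Elane differed by -0.12, -0.25 and -0.60. Cd14, the endotoxin co-receptor, was the one at least 2-fold higher on the MSC array, at 0.20 against -1.13. Macrophage chemokines and complement moved with these markers: Pf4 was at least 1114-fold lower (MEF 3.54), Ccl4 was at least 80.6-fold lower (MEF -0.25), and C1qc was at least 398-fold lower (MEF 2.06). Of 25 compared chemokines 17 were lower and 1 higher (median -2.84, with normexp -1.26). Of 25 complement and coagulation genes 16 were lower and 1 higher (median -2.17, with normexp -1.10). The chemokine Cxcl14 was at least 1573-fold lower (MEF 4.04). How much of these differences belongs to macrophages was not tested.

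Cytokine and prostaglandin genes ran in both directions. Of 34 compared, 8 were higher and 18 lower, with a median of -1.24. Ptgs2, the inducible cyclooxygenase, was 16.2-fold higher on the MSC array at 2.32 against -1.70, and Tnfaip3, an inhibitor of NF-kappaB, 9.27-fold at 1.36 against -1.85. The interleukin 1 receptor Il1r1 was at -2.13 against 1.75, Tnfaip6, a hyaluronan-binding protein known as a secreted product of MSC, was 13.1-fold lower, at 0.71 on the MEF array, and the adhesion molecule Icam1 was at least 11.9-fold lower (MEF -3.01). Interleukin 6, Il6, stood at -4.32 against -2.67. Nos2, Il1rap and Tnfrsf1b differed by at most 0.18.

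Interferon-stimulated genes were lower on the MSC array as a list. All 38 with a named probe were compared; 31 were at least 2-fold lower, 4 higher, and the median was -2.65 (-1.34 to -2.64 over the other scalings). Oas2, an antiviral nucleotidyltransferase, was at least 55.4-fold lower (MEF -0.79). Trim30a stood at -6.12 against -1.41, and the GTPase genes Igtp and Gbp2 at -3.76 against 0.70 and -3.38 against 1.07. Usp18, which removes the ubiquitin-like protein ISG15, was 20.3-fold lower at -3.71 against 0.63. Irgm1, Oasl1 and Irf1 differed by 0.26, 0.28 and -0.90, and the 4 higher ones, named after their values were seen, were Ifit2 (difference 1.48), Apol9a (1.72), Isg20 (1.93) and Ifi204 at 2.64 against 1.63. Interferon acts on such genes through the ISGF3 complex and its response element, searched here on both strands as GAAA and again GAAA with any 2 bases between them. The promoters of Igtp and Gbp2 show the element just before the start site in genes with large differences, at chr11:58199306-58199605 and chr3:142620413-142620712 (GRCm38.p6, plus strand, RefSeq), with the match, or its reverse complement, in capitals.
Igtp: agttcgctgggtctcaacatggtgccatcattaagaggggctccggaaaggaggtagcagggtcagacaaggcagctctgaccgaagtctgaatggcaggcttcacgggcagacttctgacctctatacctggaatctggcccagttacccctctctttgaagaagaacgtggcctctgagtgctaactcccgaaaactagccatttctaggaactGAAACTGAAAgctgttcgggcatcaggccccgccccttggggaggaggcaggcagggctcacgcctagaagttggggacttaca
Gbp2: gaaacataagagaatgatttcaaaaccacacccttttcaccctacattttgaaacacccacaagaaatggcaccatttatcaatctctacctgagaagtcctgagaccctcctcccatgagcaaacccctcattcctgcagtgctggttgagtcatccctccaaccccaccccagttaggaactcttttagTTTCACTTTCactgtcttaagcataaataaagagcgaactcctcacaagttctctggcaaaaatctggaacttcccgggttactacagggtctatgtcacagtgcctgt
The motif was found in 18 of the 29 members with a promoter in the table (62.1%) and in 3.68% of the 12050 promoters of compared genes. Members with it had a median difference of -2.87, with 16 of the 18 at least 2-fold lower, and those without it -1.84. Outside the list the 425 genes with the motif had a median of 0.06 against 0.05 for genes without it. Antigen presentation genes divided: of 25 compared 9 were lower and 3 higher, with a median of -0.64. H2-Eb1, a class II chain that macrophages express, was at least 29.7-fold lower (MEF -1.69), the immunoproteasome subunit Psmb8 was at -3.37 against 0.35, and B2m, the class I light chain, at 4.07 against 4.51.

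Wnt pathway genes lay mostly on the MEF side. Of 57 listed 48 were compared, 29 lower and 4 higher, with a median of -2.26. With normexp 20 were lower and 2 higher, with a median of -0.65. Of the ligands, Wnt5a, which guides limb and skin outgrowth, was 156-fold lower at -4.52 against 2.76. Of the secreted amplifiers, Rspo1 and Rspo3 were at least 72.7-fold and 133-fold lower. Of the secreted antagonists, Sfrp2 was 461-fold lower at -4.72 against 4.13, Sfrp1 was at least 214-fold lower (MEF 1.16), and Wif1 was at least 49.6-fold lower (MEF -0.95). Receptor and target genes included Lgr5, the R-spondin receptor, which was at least 142-fold lower (MEF 0.57), and Nkd1, a feedback inhibitor, which was at least 234-fold lower (MEF 1.29). The coreceptor Lrp5 and the receptor Ryk differed by 0.08 and 0.06. The 4 higher members, named after their values were seen, were Lef1 (difference 2.44), Wnt10b (2.34), Tcf7 (1.04) and Wnt7b, which was not well above background on the MEF array.

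In the TGF-beta and BMP family 25 of 46 compared genes were lower and 1 higher, with a median of -1.24. Ligands led: Bmp4 was 92.1-fold lower at -2.89 against 3.63, Gdf10 was at least 126-fold lower (MEF 0.40), Bmp7 was at least 26.4-fold lower (MEF -1.86), and Inhbb, an activin subunit, stood at -4.20 against 1.46. The activin antagonist Fst was at -1.32 against 3.28 and the receptor Acvrl1 at -5.05 against 0.15. Tgfbr3, Acvr1b and Nog differed by at most 0.03. The direct targets Id1 and Id3 had nearly equal levels, 3.25 against 3.10 and 3.82 against 3.71.

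Transcription factors of dermis, limb and skeleton were lower in part. Of 51 compared factors 25 were lower and 8 higher, with a median of -0.88. Pitx1, a factor of the hindlimb, was at least 549.8-fold lower (MEF 2.52), and Tbx5, of the forelimb, was at least 61.8-fold lower (MEF -0.63); Meox2, Pax1 and Alx1 were at least 149.7-fold, 101-fold and 29.5-fold lower. Hand2, which the liver-derived arrays hold at 2.06 to 3.82, was at least 26.5-fold lower (MEF -1.86), and Tcf21, their common marker, was not well above background on the MSC or the MEF array. Twist2, a dermal factor, was at 1.64 against 2.97, and Snai2 at 2.33 against 2.38.

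The 4 clusters of Hox genes differed from each other in the direction of their differences. Hox genes lie in the order in which they pattern the body axis and limbs, and fibroblasts are known to keep the Hox code of their site of origin. None of the 9 measured genes of the D cluster was well above background on the MSC array, where their levels lay between -8.69 and -6.49, while 8 of 9 were above background on the MEF array, up to -0.38 for Hoxd4. By the measured signals all 8 were at least 4-fold lower (median -5.36), and as bounds 6 of the 8 were, with Hoxd4 at least 73.7-fold, Hoxd8 at least 56.3-fold and Hoxd10 at least 16.7-fold. In the C cluster all 9 genes were above background on both arrays, 4 were at least 2-fold higher on the MSC array and none was lower: Hoxc10 stood at 1.41 against -1.04 and Hoxc9 at 3.44 against 1.94. In the B cluster 4 of 9 were higher and 1 lower, with Hoxb9 at 3.41 against 1.54 and the lower one, Hoxb13, at least 5.18-fold lower (MEF -4.21). In the A cluster 2 of 11 were higher and 3 lower, and the break fell between Hoxa10 at -0.20 against -0.48 and Hoxa11, which was at least 71.7-fold lower (MEF -0.42). The medians of the A, B and C clusters were -0.17, 0.73 and 0.64; median scaling raises each by the same amount, turns that of the A cluster positive and leaves the D cluster low. Over all 37 compared Hox genes 10 were higher and 12 lower, under median scaling 14 and 11, and with normexp 7 and 4. Genes named here beyond the naming rule (Hoxa10, Hoxb9, Hoxc9, Hoxc10) were chosen after their values were seen.

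**Figure D3:**
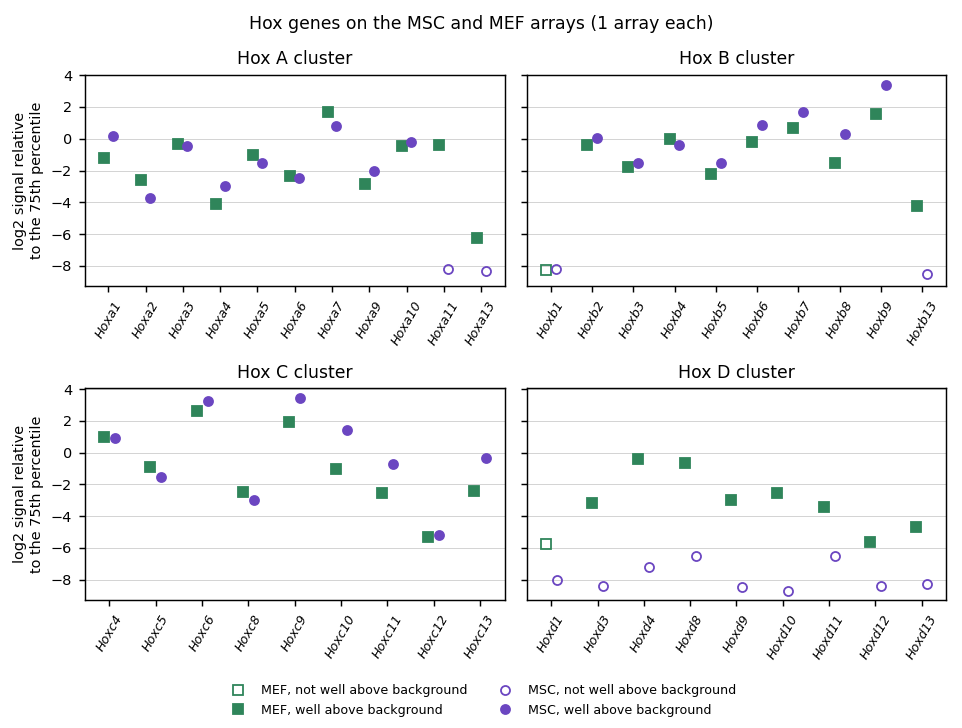
Levels of the Hox genes (log2 signal relative to the 75th percentile, y axis) on the MEF array (squares) and the MSC array (circles), 1 panel per cluster in the order of paralog number, with open symbols for levels not well above background. The 9 D cluster circles are open, and 8 of the 9 squares are filled.

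The D cluster was also the longest run of neighbouring compared genes at least 4-fold lower on the MSC array. Ordered along the chromosomes by the RefSeq table of GRCm38.p6, 9 genes in a row from Hoxd13 to Hoxd4 on chromosome 2 were lower, including the noncoding Hoxd3os1. There were 2 runs of 6, 7 runs had 5 genes, 16 had 4 and 68 had 3. Of runs of higher genes there were 2 with 4 and 1 with 3. Over all compared genes 15.76% were at least 4-fold lower and 3.196% at least 4-fold higher. How many runs these shares give by themselves was not tested. These runs use the measured signals, also where the MSC side was not well above background, and were not recounted with normexp. The runs of 5 included chemokine genes on chromosome 11 (Ccl9, Ccl6, Ccl3, Ccl4 and Wfdc17), Trim genes on chromosome 7 (Trim34a, Trim12a, Trim12c, Trim30a and Trim30d), and the purinergic receptor genes P2ry12, P2ry13 and P2ry14 with Gpr171 and Igsf10 on chromosome 3. Those of 4 included the small leucine-rich proteoglycans Dcn, Lum, Kera and Epyc on chromosome 10 and Ecm2, Aspn, Omd and Ogn on chromosome 13, and the skeletal myosins Myh3, Myh2, Myh1 and Myh8 on chromosome 11. In the promoters of RefSeq the median ratio of observed to expected CpG was 0.72 over 12050 compared genes, 0.52 over the 1793 at least 4-fold lower and 0.43 over the 365 at least 4-fold higher on the MSC array.

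Adhesion molecules and intermediate filaments were lower in part. Of 32 cadherins and integrins 18 were lower and 6 higher (median -1.96): Itga4, a receptor for VCAM1 and fibronectin, was at least 82.3-fold lower (MEF -0.22), Itga9 was at least 97.1-fold lower (MEF 0.02), and Itga6 and Itgb1 differed by 0.05 and 0.19. Of 26 S100 and intermediate filament genes 13 were lower and 4 higher (median -1.12). Vim, vimentin, was nearly equal at 5.37 against 5.27, and S100a6 was close at 7.92 against 7.66; Des, desmin, was at least 29.2-fold lower (MEF -1.71), and Nefl was at least 79-fold lower (MEF -0.28). Tubb2b, a tubulin of neurons and embryonic cells, was 857-fold lower at -5.26 against 4.48, and its 2 probes gave -9.74 and -6.15.

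Markers of further cell types were checked on both arrays. Of 17 keratinocyte markers compared 12 were lower and 1 higher on the MSC array (median -2.24), among them Krt5 at -5.45 against -1.46 and Krt14 at -5.27 against -2.16, and the summed signals were 4.29 and 8.52. Of 18 melanocyte, Schwann cell and neural crest markers 12 were lower and 1 higher (median -3.72): Sox10 was at least 58.8-fold lower (MEF -0.35), and S100b was at least 43.3-fold lower (MEF -1.14). Their summed signals were 7.12 and 15.1. Of 22 endothelial markers 11 were compared, 2 higher and 4 lower (median -0.46), with Pecam1 at -3.97 against -3.88 and Flt1 at -1.43 against 2.86. Under median scaling the endothelial median turns to 0.16, with 3 higher and 4 lower, while that of all compared genes becomes 0.67. Erythroid genes were hardly present, 7 of 17 being compared, with summed signals of 2.75 and 1.08 against 22.2 to 237 on the liver-derived arrays. Stellate cell markers were lower on the MSC array for 10 of 16 and higher for 2 (median -2.83), with Cygb at -3.09 against 1.59. With normexp the medians of the keratinocyte, the melanocyte, Schwann cell and neural crest, and the stellate lists were -0.51, -0.62 and -0.53. Lower were then 7, 7 and 6 members, and 1 was higher in each. Of 22 retinoid genes 13 were lower and 1 higher (median -2.09), and the alcohol dehydrogenase Adh1 was at least 187-fold lower (MEF 0.97).

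Several metabolic and stress lists had medians near 0 by 75th percentile scaling. Antioxidant and glutathione genes had a median of -0.08, with 3 of 32 higher and 6 lower, sterol and fatty acid synthesis genes -0.23 with 1 of 28 higher and 5 lower, and amino acid stress genes 0.37 with 2 of 24 higher and 4 lower. Under median scaling the medians became 0.54, 0.38 and 0.99, with 7 higher and 4 lower, 6 higher and 3 lower, and 12 higher and 3 lower genes. That of all compared genes became 0.67. Single members stood out: Gpx3, the secreted glutathione peroxidase, was at least 167-fold lower (MEF 0.80), and Shmt2, the mitochondrial serine hydroxymethyltransferase, was higher at 4.62 against 2.66. Among immediate early genes, which respond within minutes to a stimulus, 5 of 23 were higher and 6 lower, and under median scaling 10 and 4. Fosl1, a subunit of AP-1, stood at 1.68 against -1.96 and Dusp1, a phosphatase of MAP kinases, at 1.75 against -0.67. Fos and Fosb were low on both arrays at -2.59 against -0.99 and -3.52 against -3.42, below all 6 liver-derived arrays (3.07 to 5.88 for Fos). The heat shock protein gene Hspb1 was 1079.8-fold lower at -4.65 against 5.43, although all liver-derived arrays held it at 3.03 or more.

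In lists that were lower as a whole, a few members went the other way, and these were named after their values were seen. Among matrix genes Col20a1 differed by 1.72, Podnl1 by 3.52, the syndecan Sdc4 by 2.58, and the latent TGF-beta binding proteins Ltbp1 and Ltbp3 by 1.42 and 1.29. The matricellular genes Ccn1 and Ccn2, known targets of the transcriptional coactivator YAP, differed by 1.19 and 1.32, the tenascin Tnxb by 1.70 and the crosslinking enzyme Loxl4 by 1.42. The plasminogen activator gene Plau differed by 1.91 and Tfpi2, a protease inhibitor, by 2.12. Cnn1, the smooth muscle calponin, differed by 1.18, although Myh11 was lower. The chemokine Cxcl1 stood at -1.53 against -4.74 and was the higher one of its list. The class I genes H2-K1, H2-Q4 and H2-T23 differed by 1.19, 1.15 and 1.17, but such closely related genes can share signal on a probe. The calcium-binding proteins S100a3, S100a4 and S100a5 differed by 3.54, 1.13 and 1.65, and the keratin Krt19 by 1.16. The BMP receptor Bmpr1b differed by 1.06, Mbp, a myelin protein gene, by 2.28, the liver mesenchyme factor Lhx2 by 1.80 and the retinal dehydrogenase Aldh1a1 by 1.16.

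Sex-linked transcripts differed between the arrays. Xist, the noncoding RNA that silences 1 X chromosome in female cells, was at least 46.9-fold lower (MEF -1.03). The Y-linked genes Ddx3y and Eif2s3y were at least 89.1-fold lower (MEF -0.10) and at least 48.9-fold lower (MEF -0.97), and Uty was at least 2.76-fold lower (MEF -5.12). The MEF array therefore carried signal of both Xist and Y-linked genes, as did the 5 fetal and newborn liver arrays, and the MSC array carried none of these 4. On the adult HSC array Ddx3y had a level of 1.55, with Xist not well above background. Zfy1 was the Y-linked exception, at -4.44 on the MSC array and not well above background on the MEF array or on any liver-derived array. The X-linked partners Ddx3x, Kdm5c and Kdm6a were present at 3.91 against 3.21, 2.38 against 2.42 and -1.71 against -1.68.

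On the MSC array the median difference of several chromosomes departed from that of all genes. Whether all or only a part of the genes of a chromosome were shifted was not tested. Over genes above background on both arrays, the median difference of a chromosome minus that of all such genes ran from -0.49 on chromosome 16 (386 genes) to 0.29 on chromosome 19 (465 genes), and it was at least 0.2 from 0 on 9 of 20 chromosomes. Chromosome 1 stood at -0.33 and chromosome 4 at -0.25 on the lower side, chromosomes 15 and 17 at 0.29 and 0.28 on the higher. Set against each of the other 7 arrays, comparisons that all share the MSC array, chromosome 16 lay between -0.49 and -0.39, chromosome 15 between 0.29 and 0.38 and chromosome 19 between 0.25 and 0.37. In the same calculation for the MEF array against each of the 6 liver-derived arrays, 0 of 20 chromosomes were 0.2 or more from 0, and chromosome 16 lay between -0.003 and 0.04. With normexp background correction chromosome 16 stood at -0.34, chromosome 15 at 0.22 and chromosome 19 at 0.17. The part of these shifts in the medians of the gene lists was not tested.

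**Figure D4:**
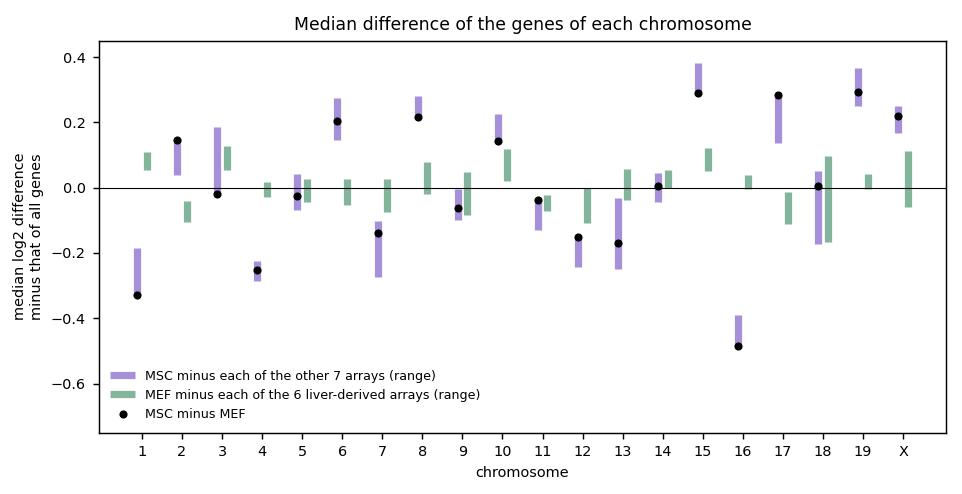
Median log2 difference of the genes of each chromosome minus that of all genes (y axis), over genes above background on both arrays compared; points give MSC minus MEF, purple bars the range of MSC minus each of the other 7 arrays and green bars the range of MEF minus each of the 6 liver-derived arrays. The purple bars lie at least 0.2 from 0 on chromosomes 4, 8, 15, 16 and 19, while the green bars stay within 0.2 of it.

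A set of genes was low on the MSC array alone. Above background on all 7 other arrays but not on the MSC array were 424 genes, against 36 such genes for the MEF array. The reverse, above background on that array only, held for 307 genes on the MSC array and 300 on the MEF array. Among 6925 genes that were well above background on the other 7 arrays and varied by at most 1.5 over them, 48 were at least 16-fold below their median on the MSC array and 0 were as far above it, limits that were chosen after the data had been seen. For the MEF array 1 gene was lower (Immp1l, which rests on 1 of its 2 probes) and 2 were higher (the macrophage genes C1qb and Tlr13) among 5664. The MEF counts take the MSC array among the other 7, and no such counts were made for a liver-derived array. All 48 genes are steady on the other 7 arrays by the rule that picked them. Among them Vps16, a subunit of the complexes that tether endosomes to lysosomes, stood at -5.68 on the MSC array and at 2.58 to 3.07 on the liver-derived arrays. Csf2ra, a receptor subunit for the growth factor GM-CSF, stood at -6.13 and at 1.86 to 2.36. Dapk1, a death-associated kinase, and Cnrip1, a protein that binds a cannabinoid receptor, were not well above background on the MSC array and at 0.51 and 1.18 on the MEF array. The mitochondrial enzyme subunit Mccc2, at -0.62 on the MEF array, was likewise not well above background on the MSC array.

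**Figure D5:**
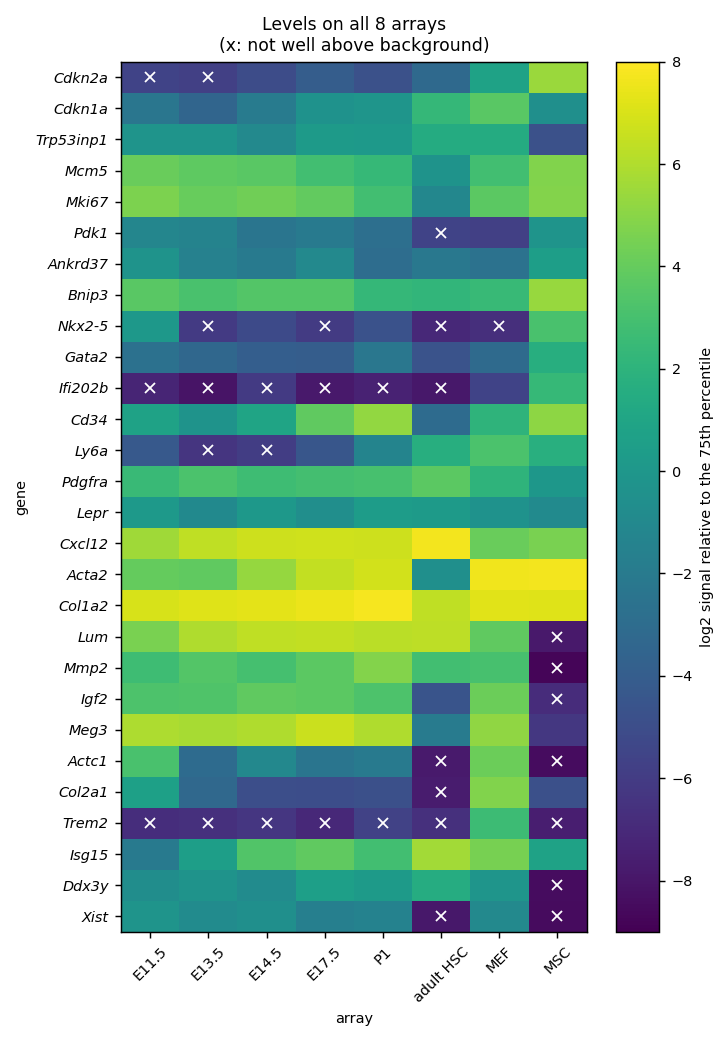
Levels of 28 genes named in the text on all 8 arrays (colour, log2 signal relative to the 75th percentile; rows are genes, columns arrays), with a cross where the level was not well above background. The MSC column differs from the other 7 in Cdkn2a, Ifi202b and Gata2 at the high end and in Lum, Mmp2 and Ddx3y at the low end, while Col1a2 is high in every column.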

How the data were processed

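One-colour Agilent arrays of 8 samples were used. Per the file headers the scanner files were made by Agilent Feature Extraction 11.5.1.1, and the deposited spot intensity is background-subtracted and spatially detrended but not normalized between arrays. The deposited series table holds log2 values that the authors scaled to the 75th percentile, per the series' design text, and it served as an alternative. The values used here minus those of the table had a median of -0.13 on the MEF array and -0.15 on the MSC array, and after this offset 100% and 93.2% of probes lay within 0.02. The zero point of that table was not given in the sources used here.

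From the intensity, log2 of the signal minus log2 of the array's 75th percentile was taken over non-control spots. Spots marked as outliers were left out and repeated spots of a probe averaged. Of 39429 probes 26581 (67.4%) were named by matching their accession, without version, to RefSeq on GRCm38.p6, giving 20144 genes. For a gene with several probes, the one brightest on average across the 8 arrays was taken. A gene entered where the probe was well above background on the brighter array, and a level below background on the other is replaced, for a bound, by the higher of its own value and the lowest level well above background on that array. No test was made, since each side is 1 array, and slide and array cannot be separated from cell type further than both lying on 1 slide. The code was tested on simulated data.

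The members, the 41 gene lists and the alternatives were chosen with earlier results of these data known. The genes named are the 20 highest and 20 lowest differences among genes above background on both arrays, the 15 largest bounds a side, from each list up to 8 members farthest from and up to 3 nearest to 0, and 15 markers, 473 genes in all, of which the text uses a part. Other names were chosen after their values were seen: Apol9a, B2m, Bdnf, Car9, Cd14, Cnrip1, Col3a1, Csf1r, Dapk1, Dlk1, Elane, Ereg, Hbegf, Hoxa10, Hoxb9, Hoxc9, Hoxc10, Id1, Id3, Ifi204, Ifit2, Isg20, Lef1, Mccc2, Met, Mki67, Tcf7, Trp53, Vegfa, Wnt7b, Wnt10b the genes of the runs along chromosomes, and the members that went against their list.

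Listed genes with no matched probe name were not analysed here: Bglap, Col6a3, Col12a1, Prelp, Mmp27, H19, Gtl2, Mx1, Mx2, Ifi203, Ifi205, H2-T22, H2-L, C1s, C5, C7, Ccl21a, Cxcl11, Cd68, Clec7a, Hbb-b1, Ahsp, Tsix, Hspa1b and Itga10. Some members of the lists are counted but not reported here by name. Of Foxc1, Lama4, Crabp2, Hmox1 and Cd24a the MEF spot was dropped as an outlier. Alternatives were normexp background correction (limma 3.58.1 in R 4.3.3, offset 50, on the median in place of the mean signal, since the files used hold no mean signal), median and quantile normalization, the authors' table, 2 other filters on dim genes, the mean of a gene's probes, bounds in place of dim levels, and other fold thresholds. Other computations used Python 3.11.15 and pandas 2.3.3.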

Additional observations from a re-analysis of the deposited data

How the results depend on the processing

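The 485 genes at least 4-fold higher on the MSC array became 115 with normexp background correction, 1168 with median normalization, 248 over genes above background on both arrays, 302 with levels below background at their bound, 2196 at a 2-fold threshold and 141 at an 8-fold threshold. The 2391 lower genes became 725 with normexp, 1007 over genes above background on both arrays and 3637 at the 2-fold threshold. The median of all compared genes, 0.05, became 0.67 with median normalization and -0.086 with no filter on dim genes. The lower genes outnumbered the higher ones under every setting tried, each changed alone. The higher share of the calls ran from 7.93% at the 8-fold threshold to 37.6% at the 2-fold threshold. For all genes the 2-fold threshold was not combined with median normalization, so the direction there is not known. The lower counts under the both-array filter and the stricter thresholds follow from fewer genes entering or passing; for normexp the cause was not tested. Of 347 named genes at least 2-fold apart, 289 of 346 stayed so with normexp, 334 with median normalization and at least 344 under quantile normalization, the authors' table, no filter, the mean of probes and bounds. Of the 25 lists with a median beyond 1 on the log2 scale, 13 stayed beyond it with normexp, 16 over genes above background on both arrays, 18 with median and 20 with quantile normalization, and 32 of 41 lists kept the sign of their median under all 4 scalings. With normexp the niche, protease, p53 and senescence, cytokine, keratinocyte, neural crest and stellate lists fell within 1. So did the Wnt, TGF-beta and BMP, cadherin and integrin, S100 and filament, and retinoid lists. Precision is limited by 1 array a side and, on the dim side, by the spots not well above background. No paired analysis was possible because each side has a single array.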
